A study of Mus musculus with 18 samples.

Results

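Mammary tumors that carried the p53 substitution R172H were compared directly with mammary tumors that carried R245W, gene by gene, in bulk RNA-sequencing counts. The 7 MaP R172H/- tumors YZ2, YZ3, YZ4, YZ6, YZ7, YZ10 and YZ11 were set against the 5 MaP R245W/- tumors JM1233, JM1564, RM0014, JM1126 and JM1133. These are 12 of the 18 tumors of the series, and the other 6 are MaP -/- tumors from 4 mice, used only as a reference level. All animals were female first-generation crosses of BALB/c and C57BL6/J, and every tumor arose after an adenovirus carrying Cre recombinase was injected into a mammary duct. Cre switched the conditional allele to the mutant form and deleted the other Trp53 allele, and in MaP -/- tumors it deleted both. Recombination was limited to the injected ductal epithelium, so the surrounding stroma kept wild-type Trp53. YZ2, YZ6, YZ10, JM1233, JM1564 and RM0014 also carried a TdTomato reporter. Genes were restricted to those that the GENCODE annotation calls protein-coding, which are 21685 of the 57126 genes in the table, and 14734 of them passed the filter on low counts.

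Genotype was not the only thing that separated the groups. The MaP R172H/- libraries were read on a HiSeq4000 with shorter paired reads, while those of MaP R245W/- and MaP -/- came from a NovaSeq instrument with longer ones. By quantitative PCR of Esr1, Pgr and Erbb2, the MaP R172H/- tumors had been assigned to the luminal B or HER2-enriched subtype and the MaP R245W/- tumors to the triple-negative subtype. All MaP R172H/- tumors were nonmetaplastic adenocarcinomas, whereas among the MaP R245W/- tumors JM1564 alone was one: JM1126 was a nonmetaplastic sarcoma and JM1233, RM0014 and JM1133 were metaplastic sarcomatoid carcinomas. Mutant, platform, read length, subtype and most of the histology therefore cannot be told apart in any difference given here. In bulk tissue, fewer cells of a type and less RNA per cell cannot be told apart either.

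The p53 protein is a transcription factor that halts division or kills cells after DNA damage, and missense mutations in breast cancer cluster in its DNA-binding domain. R172H is a structural mutant that unfolds that domain, and R245W removes an arginine that touches DNA directly. Both proteins accumulate in tumor cells and can bind other transcription factors, so the question behind the comparison is whether these mutants leave different transcriptomes. The reference codons that the alleles change lie on chromosome 11 of the mouse genome (GRCm39), in coding exons of Trp53 on the plus strand, and are given here because they define the groups. The codon that R172H changes is at chr11:69479337-69479339 and the codon that R245W changes is at chr11:69480036-69480038. In these windows of 63 bases, chr11:69479307-69479369 and chr11:69480006-69480068, the capitals mark the arginine codon, which is the same triplet at both sites:
Trp53, codon of R172H: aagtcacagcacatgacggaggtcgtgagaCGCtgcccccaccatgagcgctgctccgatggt
Trp53, codon of R245W: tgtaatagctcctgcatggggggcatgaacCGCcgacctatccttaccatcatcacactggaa

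Libraries of the MaP R172H/- tumors held 23113578 to 27930163 estimated gene counts (median 24064910), and those of the MaP R245W/- tumors held 30030630 to 37365062 (median 33581143). Every MaP R245W/- library was deeper than every MaP R172H/- library (exact 2-sided permutation test over the 792 arrangements of the tumors, p = 0.00126). Protein-coding genes took 88.0 to 93.3% of the counts in the first group and 93.9 to 95.0% in the second. Between 2 tumors of different genotype the Spearman correlation across genes had a median of 0.89, against 0.932 within MaP R172H/- and 0.878 within MaP R245W/-, a value between those of the groups themselves. Genes are not independent replicates, and these coefficients are descriptive.

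Levels are given in CPM, estimated counts scaled to the size of each library with trimmed-mean (TMM) factors on 1 scale over the 18 tumors, and values of the MaP R245W/- tumors are always in the order JM1233, JM1564, RM0014, JM1126 and JM1133. A few tumors stood apart in cell-type markers. Summed over 24 luminal keratin and regulator genes, YZ7 held 499.4 CPM and JM1233 held 626.4 CPM, against 4015 to 11830 CPM in the other 10 tumors. Both were also lowest for 27 epithelial junction genes, at 878.3 and 559 CPM. JM1233 was the highest tumor for 29 skeletal muscle markers (8357 CPM, against 90.54 to 730.1 CPM elsewhere). JM1126 held 3759 CPM of 12 neutrophil markers, against 13.08 to 194.3 CPM in the other 11 tumors, and had the most collagen and matrix transcripts, 73430 CPM. The label of an epithelial mammary tumor was therefore met by luminal markers in 10 of the 12 tumors, and counts that could rest on JM1233 or JM1126 are given with and without them.

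**Figure D1:**
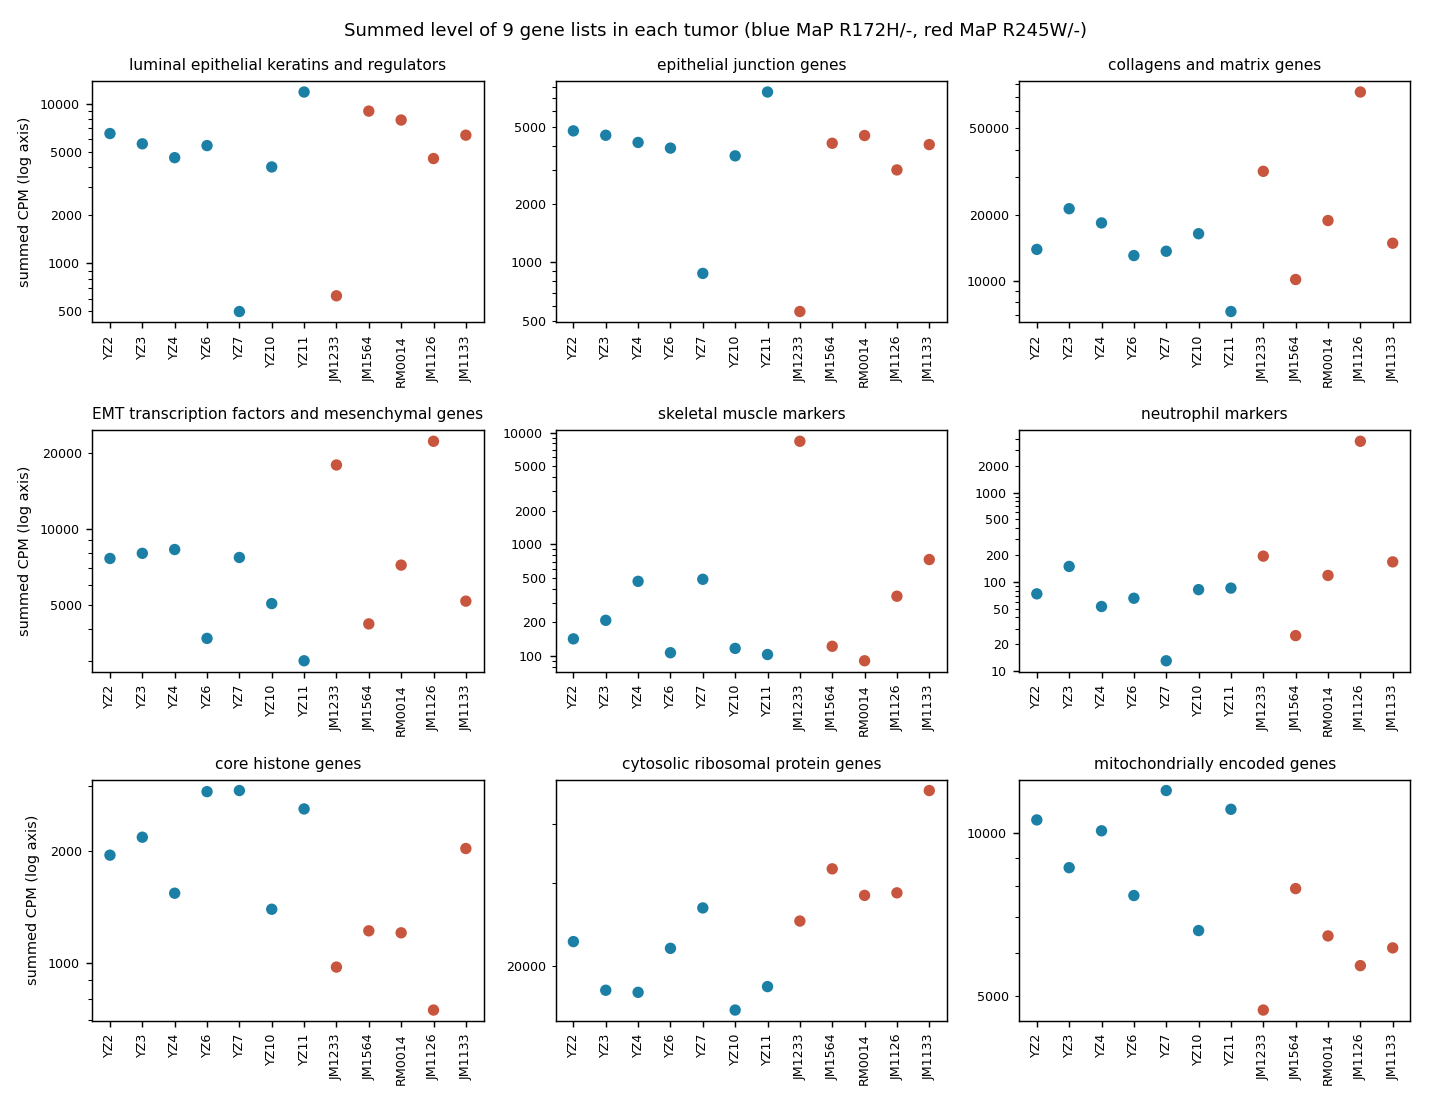
Summed level of 9 gene lists in each of the 12 tumors (CPM, log axis; blue, MaP R172H/-; red, MaP R245W/-; 1 point per tumor). YZ7 and JM1233 lie lowest for luminal keratins and junction genes, JM1233 highest for skeletal muscle markers at 8357 CPM, and JM1126 highest for neutrophil markers at 3759 CPM and for collagens.

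The targeted gene itself did not separate the groups. Trp53 was measured at 10.8 to 50.2 CPM (median 45.4) in the MaP R172H/- tumors and 11.5, 26.9, 9.04, 27.8 and 58.5 CPM in the MaP R245W/- tumors, a log2 fold change of 0.60 (SE 0.461, adjusted p = 0.451) in edgeR's quasi-likelihood test. YZ11, at 10.8 CPM, was far below the other 6 MaP R172H/- tumors, which held 41.4 to 50.2 CPM, and the MaP R245W/- tumors covered that whole span. Trp53 stood at 9.53 to 22 CPM (median 12.2) in the MaP -/- tumors. Total Trp53 RNA includes wild-type stroma, so it does not identify the allele.

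Each gene's difference was called when edgeR's Benjamini-Hochberg adjusted p was below 0.05 and the log2 fold change, MaP R172H/- minus MaP R245W/-, was at least 1 in size. Of the 14734 protein-coding genes tested, 103 were called higher in MaP R172H/- tumors (0.699%) and 315 higher in MaP R245W/- tumors (2.14%). The median over all tested protein-coding genes was -0.08, on a scale that TMM normalization sets near 0. The groups did not overlap at all for 177 genes with every MaP R172H/- tumor on top (1.2% of those tested) and for 483 genes with every MaP R245W/- tumor on top (3.28%). Of the called genes, 62 and 175 were free of overlap. Without JM1233 and JM1126, 118 genes (0.788%) and 317 genes (2.12%) were called of 14966 tested, of which 38 and 187 were calls over all 12 tumors too.

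**Figure D2:**
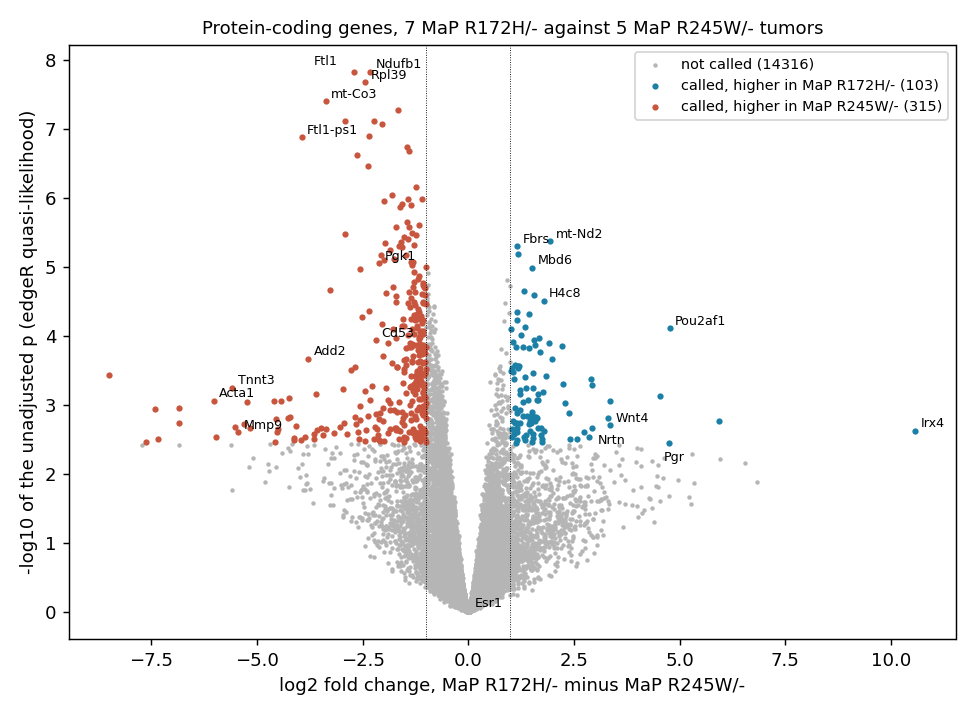
Log2 fold change (horizontal, MaP R172H/- minus MaP R245W/-) against -log10 of the unadjusted p of edgeR's test (vertical) for the 14734 protein-coding genes, with the 103 and 315 called genes coloured and dotted lines at a log2 fold change of 1 in each direction. The smallest p-values belong to Ftl1 and Ndufb1 on the MaP R245W/- side. Irx4, at the far right, has 0 counts in every MaP R245W/- tumor, so its plotted position depends on the fit's prior count.

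Most called differences were seen in most tumors. Of the 103 genes called higher in MaP R172H/-, each MaP R172H/- tumor lay above the whole MaP R245W/- range for 89 (YZ10) to 99 genes. For the 315 genes called higher in MaP R245W/-, each MaP R245W/- tumor lay above the whole MaP R172H/- range for 244 (JM1564) to 293 (JM1126) genes. The calls were made on the same values, so these counts describe the calls and are no separate evidence for them.

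None of the hormone receptor genes that had placed the groups in different subtypes was called. Esr1, the estrogen receptor, stood at 6.89 to 22.8 CPM (median 10.4) in the MaP R172H/- tumors and 19.9, 1.32, 8.96, 15.4 and 9.78 CPM in the MaP R245W/- tumors, with a log2 fold change of 0.04 (SE 0.511, adjusted p = 0.974) by edgeR. The groups overlapped over nearly their whole range, with YZ4 highest and JM1564 lowest. Erbb2, which encodes HER2, was at 34.9 to 114 CPM (median 99.1) in the MaP R172H/- tumors and 25.8, 99.9, 114, 48.5 and 128 CPM in the MaP R245W/- tumors and had a log2 fold change of 0.08 (SE 0.381, adjusted p = 0.924). The sign of both genes' difference turned in some alternative fits. Pgr, the progesterone receptor, had a log2 fold change of 4.49 (SE 1.41, adjusted p = 0.0736), with 81.6 CPM in YZ4 alone and 0.395 to 2.91 CPM in the other 6 MaP R172H/- tumors. Its MaP R245W/- values were 0.48, 0.245, 0.742, 0.579 and 0.871 CPM, and without YZ4 the log2 fold change was 1.59. Pgr was called higher in MaP R172H/- in the edgeR fit without YZ7. It was also called with all 18 tumors in the edgeR fit (adjusted p = 0.0484) and by DESeq2's Wald test (adjusted p = 0.0144). No other alternative fit called it.

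Among 17 tested hormone receptors and hormone targets the median log2 fold change was 1.19, and Wnt4 and Tnfsf11 were the members called, in opposite directions. Wnt4, a secreted Wnt ligand that progesterone induces in the mammary epithelium, was measured at 1.9 to 33.2 CPM (median 4.82) in the MaP R172H/- tumors and 1.14, 0.337, 0.428, 1.58 and 1.74 CPM in the MaP R245W/- tumors. Every MaP R172H/- tumor exceeded every MaP R245W/- tumor, with a log2 fold change of 3.35 (SE 0.865, adjusted p = 0.0357) by edgeR. The call was lost when any 1 of the 5 MaP R245W/- tumors, YZ4 or YZ11 was left out, although the log2 fold change remained between 2.73 and 3.61 in those fits. Tnfsf11, which encodes RANKL, another progesterone-induced signal, was lower in MaP R172H/- (log2 fold change -3.49, SE 0.909, adjusted p = 0.0377), at 0.0878 to 0.63 CPM (median 0.365) in the MaP R172H/- tumors and 2.67, 0.184, 1.06, 15.1 and 0.455 CPM in the MaP R245W/- tumors, and was looked up because it was the other call. Its groups overlapped. Without JM1126 its log2 fold change was -1.66 (adjusted p = 0.152 in edgeR) and without JM1233 as well -0.72, and the call was also lost without any 1 MaP R172H/- tumor. Of the 14 ERBB receptors and ligands tested, none was called by edgeR, and the epidermal growth factor receptor ligand Ereg, with a log2 fold change of -4.26, had 61.9 CPM in JM1126 against 0.33 to 1.34 CPM in the other 4 MaP R245W/- tumors.

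No marker list of epithelial identity held a called gene. None of 24 luminal genes and none of 27 epithelial junction genes was called by edgeR (Tjp3, at a log2 fold change of 2.34, and Evpl, at 1.36, had the smallest p among the junction genes), with list medians of 0.25 and 0.35 that went to -0.27 and -0.045 without JM1233 and JM1126. Krt19, a luminal keratin, was 2.59 CPM in YZ7 and 128 to 767 CPM in the other MaP R172H/- tumors. None of 24 basal and myoepithelial genes was called either, although 17 of them lay above 0 and their median was 1.23. Id4, a helix-loop-helix regulator of basal mammary cells, was one of the members with the smallest p, with a log2 fold change of 2.50 (SE 0.725, adjusted p = 0.0556). It stood at 9.13 to 143 CPM (median 63.4) in the MaP R172H/- tumors and 1.77, 20.8, 22.6, 9.26 and 7.43 CPM in the MaP R245W/- tumors. Lists of 21 cartilage and bone genes (median 0.58), 25 Wnt target and feedback genes (0.19) and 16 milk protein and secretory genes (-0.14) held no call either.

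Among the called genes free of overlap with a median of at least 1 CPM in the higher group, Pou2af1 had the largest log2 fold change on the MaP R172H/- side (ENSMUSG00000032053.9, chr9:51124984-51151380). It encodes a B-cell transcriptional coactivator and was measured at 0.906 to 26.6 CPM (median 4.93) in the MaP R172H/- tumors and 0.24, 0.429, 0.371, 0.257 and 0.5684 CPM in the MaP R245W/- tumors, with a log2 fold change of 4.76 (SE 0.835, adjusted p = 0.00538) by edgeR. All 7 MaP R172H/- tumors exceeded all 5 MaP R245W/- tumors, from YZ2 at the bottom to YZ6 and YZ7 at the top, which held 26.6 and 22 CPM. Pou2af1 was the only one of 10 tested B and plasma cell markers that was called. Of these 10 markers 8 lay above 0, and the median of the list was 0.77. The summed level of the 12 protein-coding members, which leaves out the immunoglobulin genes of the list, overlapped between the groups. It was 124.6 to 565.4 CPM in MaP R172H/- (median 232) and 223 to 1174 CPM in MaP R245W/- tumors (median 304.6). A sum is weighted toward the most abundant members, unlike the list median. Irx4, a homeobox gene chosen after its values were seen, was found in every MaP R172H/- tumor, at 0.0701 to 30.1 CPM, and had no count in any MaP R245W/- tumor. Set against 3 counts over the 5 MaP R245W/- libraries (0.0189 CPM), its MaP R172H/- mean of 6.8 CPM was at least 359-fold higher. The highest tumor was YZ4, and the mean of the other 6 MaP R172H/- tumors (2.91 CPM) was at least 154-fold higher than that floor.

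On this side Mbd6 (ENSMUSG00000025409.15, chr10:127117825-127124936), a methyl-CpG-binding domain protein of the histone H2A deubiquitinating complex, was at 16.7 to 33.9 CPM (median 24.7) in the MaP R172H/- tumors and 7.5, 7.27, 7.56, 10.7 and 10.2 CPM in the MaP R245W/- tumors, with a log2 fold change of 1.51 (SE 0.216, adjusted p = 0.00154). The groups were well apart, with no MaP R245W/- tumor above 10.7 CPM. Fbrs, a subunit of a variant Polycomb complex, was at 34.7 to 52.8 CPM (median 42.3) in the MaP R172H/- tumors and 18.6, 17.6, 17.3, 21.8 and 19.97 CPM in the MaP R245W/- tumors with a log2 fold change of 1.16 (SE 0.156, adjusted p = 0.000983), and Prr12 had a log2 fold change of 1.31 (SE 0.203, adjusted p = 0.00261). Nsrp1, a splicing regulator, was at 43.8 to 66.8 CPM (median 58.5) in the MaP R172H/- tumors and 21.3, 26.4, 20.2, 24.9 and 30.4 CPM in the MaP R245W/- tumors, with a log2 fold change of 1.18 (SE 0.161, adjusted p = 0.00117). Zfhx2, a zinc finger homeobox gene, had the larger log2 fold change of 2.24 (SE 0.484, adjusted p = 0.0156), at 7.26 to 38.4 CPM (median 8.37) in the MaP R172H/- tumors and 3.3, 3.68, 3.22, 1.96 and 2.24 CPM in the MaP R245W/- tumors, and was 2.15 and not called without JM1233 and JM1126. The canonical transcripts of Mbd6, Fbrs and Prr12 had a GC content of 63.3, 61.1 and 62.3%, and the fits with offsets for GC content and length gave 1.18 for Mbd6, 0.93 for Fbrs and 0.94 for Prr12, the last pair below the fold limit.

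**Figure D3:**
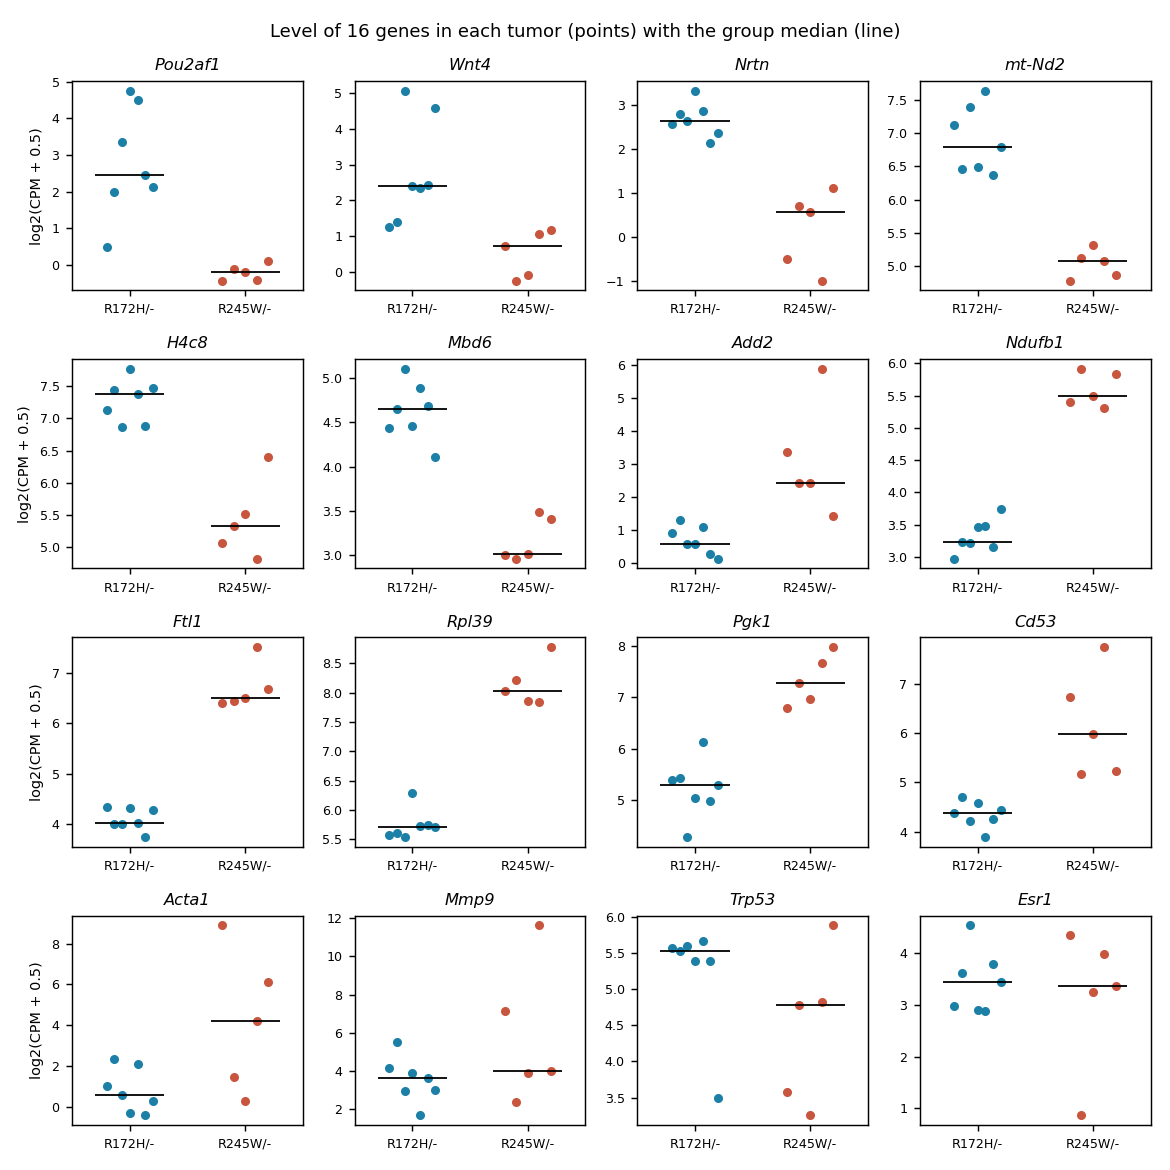
Level of 16 genes in each tumor, as log2(CPM + 0.5), with the group median as a line (blue, MaP R172H/-; red, MaP R245W/-). Groups are apart for Pou2af1, Wnt4, Nrtn, mt-Nd2, H4c8, Mbd6, Add2, Ndufb1, Ftl1, Rpl39, Pgk1 and Cd53, overlap for Acta1, Mmp9, Trp53 and Esr1, and the Mmp9 difference rests on JM1126.

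Histone genes gave more calls than any other list on the MaP R172H/- side. Core histones package DNA, and their replication-dependent genes, clustered on chromosomes 13 and 3, are transcribed in S phase into mRNAs that lack a poly(A) tail. The median log2 fold change over the 50 tested core histone genes was 0.86, with 38 above 0, 15 called higher in MaP R172H/- and 1, H3c10, called higher in MaP R245W/- (-1.35). Over all tested genes 0.699% were called in the first direction. H4c8 (ENSMUSG00000060981.8, chr13:23715220-23715689) was measured at 117 to 218 CPM (median 166) in the MaP R172H/- tumors and 32.9, 39.6, 45.4, 27.6 and 84.1 CPM in the MaP R245W/- tumors, with a log2 fold change of 1.79 (SE 0.285, adjusted p = 0.00326). No MaP R245W/- tumor reached the lowest MaP R172H/- tumor, and JM1133 was the nearest. By the same test H4c12 followed with a log2 fold change of 1.92 (SE 0.355, adjusted p = 0.00721), H4c14 with a log2 fold change of 1.98 (SE 0.389, adjusted p = 0.00955), H2ac13 with a log2 fold change of 2.22 (SE 0.414, adjusted p = 0.00742) and H2ac15 with a log2 fold change of 1.84 (SE 0.385, adjusted p = 0.0133). Fits without 1 tumor called 9 to 17 members in that direction, with 17 when JM1133 was left out and 9 when YZ2, YZ3, YZ6, YZ11, JM1233, RM0014 or JM1126 was. Without JM1233 and JM1126 together the list median was 0.56 and 5 members were called, H2ac13, H2ac15, H4c4, H4c8 and H4c12, while H4c14 (1.68) was not. Without YZ7 as well, 7 were called. With GC and length offsets the median was 0.53, with 11 members called and H2ac15 (1.19) not among them. The labels name a stranded mRNA library and the study's methods a total-RNA library with ribosomal RNA removed, so whether poly(A) selection was used in either group is unclear, and its part in the histone difference was not tested.

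The histone genes share coding sequence with each other, so counts can move between them in read assignment. Bases 61 to 141 of the 309 coding bases are shown for a trio of H4 genes that were called in the same direction, 5′ to 3′ on each gene's own strand, with capitals at bases that differ from H4c8 (GRCm39; H4c8 chr13:23715345-23715425, H4c12 chr13:21934535-21934615 on the minus strand and H4c14 chr3:96170480-96170560 on the minus strand):
H4c8: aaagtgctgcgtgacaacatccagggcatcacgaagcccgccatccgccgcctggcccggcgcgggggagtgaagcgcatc
H4c12: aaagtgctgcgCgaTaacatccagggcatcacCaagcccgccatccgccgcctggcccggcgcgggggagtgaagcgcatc
H4c14: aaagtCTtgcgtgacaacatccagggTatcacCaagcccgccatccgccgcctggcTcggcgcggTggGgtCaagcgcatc
Over the whole coding sequence H4c12 was 95.5% and H4c14 90.3% identical to H4c8. Summing each gene with the genes that hold at least 50% of its coding 31-base words reduces that ambiguity. For H4c8 with 7 such genes the sum was 325.1 to 677.5 CPM in MaP R172H/- and 105.7 to 316.7 CPM in MaP R245W/- tumors, still without overlap, and the log2 ratio of the means was 1.51 against 1.79 for H4c8 alone. For H2ac13 with 12 such genes the log2 ratio was 0.97 against 2.23 alone, and the sums overlapped (17.92 to 43.66 CPM and 7.783 to 22.43 CPM). The whole histone list summed to 1394 to 2915 CPM in MaP R172H/- and 745.0 to 2033 CPM in MaP R245W/- tumors, beside 264.3 to 1224 CPM in MaP -/- tumors. Of 44 mitosis and S phase genes tested, none was called higher in MaP R172H/-.

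Histone promoters typically carry CCAAT and TATA boxes. In the 300 bases before the annotated start of the canonical transcript, the letters CCAAT occurred on either strand in 76.0% of the 50 histone genes and 39.4% of the 14724 tested genes with a window, and TATAAA in 54.0% and 9.62%. Among the 15 called histone genes the shares were 66.7% and 46.7%. The window of H2ac13, chr13:21900292-21900591 on the plus strand, is shown because it holds 4 CCAAT matches, in capitals on either strand (ATTGG is the reverse complement):
H2ac13: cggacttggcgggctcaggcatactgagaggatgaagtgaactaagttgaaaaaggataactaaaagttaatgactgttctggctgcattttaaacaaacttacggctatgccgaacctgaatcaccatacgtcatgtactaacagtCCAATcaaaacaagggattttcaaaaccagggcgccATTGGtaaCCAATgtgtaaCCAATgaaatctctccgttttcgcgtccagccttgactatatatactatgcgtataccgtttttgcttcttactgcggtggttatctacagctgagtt

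Counts of mitochondrial genes split by gene. The mitochondrial genome encodes 13 proteins of the respiratory chain, 10 of which passed the filter. Of these, 6 were called higher in MaP R172H/- and 3 higher in MaP R245W/-, beside 0.699% and 2.14% of all tested protein-coding genes. mt-Nd2, a subunit of complex I, was at 82 to 199 CPM (median 109.7) in the MaP R172H/- tumors and 27.1, 34.5, 39.4, 33.5 and 28.7 CPM in the MaP R245W/- tumors, with a log2 fold change of 1.94 (SE 0.254, adjusted p = 0.000886). The lowest MaP R172H/- tumor, YZ10, was well above the highest MaP R245W/- tumor, RM0014. mt-Cytb (log2 fold change 1.55, SE 0.242, adjusted p = 0.00275), mt-Nd5 (1.43), mt-Nd6 (1.44), mt-Nd1 (1.11) and mt-Nd4 (1.06) were free of overlap too. In the opposite direction, mt-Co3, a subunit of complex IV, was at 1.01 to 2.36 CPM (median 1.44) in the MaP R172H/- tumors and 13.9, 15.7, 21.4, 11.1 and 19.4 CPM in the MaP R245W/- tumors, with a log2 fold change of -3.37 (SE 0.292, adjusted p = 7.45e-05), and mt-Co2 (-2.64) and mt-Atp6 (-1.73) went the same way. These last 3 genes have near-identical copies in the nuclear genome: the pseudogene Gm28437 holds 99.9% of the coding words of mt-Co3. Summing that pair left 4.588 to 13.65 CPM in MaP R172H/- and 27.11 to 44.98 CPM in MaP R245W/- tumors, a log2 ratio of -2.22 against -3.37 for mt-Co3 alone. These sums were still far below mt-Cytb, at 644 to 1496 CPM in MaP R172H/- and 239 to 458 CPM in MaP R245W/- tumors. How much of the mt-Co3 and mt-Co2 transcripts the counts hold was not tested, so their ratios may not measure the transcripts. Apart from mt-Nd1, all 10 tested genes share at least 5% of their coding 31-base words with another gene. mt-Co1 was not called (log2 fold change 0.45, SE 0.228, adjusted p = 0.244). mt-Nd1, mt-Nd4 and mt-Atp6, like mt-Co1, were added after their values were seen.

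Ribosomal protein genes gave more calls than any other list on the MaP R245W/- side. Of 77 cytosolic ribosomal protein genes tested, 32 were called higher in MaP R245W/- and none higher in MaP R172H/-, with 67 below 0 and a median of -0.89, beside 2.14% called and a median of -0.08 over all tested genes. Rpl39 was at 45.9 to 78 CPM (median 52.1) in the MaP R172H/- tumors and 262, 297, 231, 228 and 439 CPM in the MaP R245W/- tumors, with a log2 fold change of -2.43 (SE 0.2, adjusted p = 4.56e-05). YZ6 was the highest MaP R172H/- tumor, at 78.0 CPM, and still far below the lowest MaP R245W/- tumor. Rpl23a (-2.36), Rpl10 (-2.23) and Rpl38 (-2.04) moved the same way without overlap, as did Rpl22l1 (-2.36), a paralog of Rpl22. Nearly all of these genes have processed pseudogenes, and 76 of the 77 share at least 5% of their coding 31-base words with another gene. Rpl10 summed with its 9 copies was 197.5 to 338.5 CPM in MaP R172H/- and 558 to 951.5 CPM in MaP R245W/- tumors, a log2 ratio of -1.42 against -2.23 alone. The list summed to 16160 to 26600 CPM and 24950 to 47170 CPM, ranges that overlap narrowly.

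Ferritin light chain was among the genes with the smallest p. Ftl1 (ENSMUSG00000050708.17, chr7:45107367-45109308), a subunit of the iron-storage shell ferritin, was at 12.8 to 19.6 CPM (median 15.6) in the MaP R172H/- tumors and 84.7, 86.6, 89.8, 183 and 102 CPM in the MaP R245W/- tumors, with a log2 fold change of -2.70 (SE 0.216, adjusted p = 4.56e-05). No MaP R172H/- tumor came near the MaP R245W/- range, in which JM1126 was highest and the other 4 tumors were close together. Ftl1-ps1, a gene of pseudogene name that the annotation counts as protein-coding, had a log2 fold change of -3.94 (SE 0.379, adjusted p = 0.000123). A stretch of 72 bases (coding bases 433 to 504 of 549) is shown because it holds the differences between the pair over the whole coding sequence, with capitals where Ftl1-ps1 differs (GRCm39; Ftl1 chr7:45107579-45107650 on the minus strand, Ftl1-ps1 chr13:74555155-74555226 on the plus strand):
Ftl1: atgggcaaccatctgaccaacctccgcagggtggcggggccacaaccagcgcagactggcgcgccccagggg
Ftl1-ps1: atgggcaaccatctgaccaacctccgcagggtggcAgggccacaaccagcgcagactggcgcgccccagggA
The coding sequences were 99.6% identical, so reads within them could seldom be told apart. The rest of the canonical transcripts, which are 969 bases long for Ftl1 and 1872 for Ftl1-ps1, was not compared. Ftl1 with its 3 copies summed to 13.53 to 20.49 CPM in MaP R172H/- and 91.66 to 187.9 CPM in MaP R245W/- tumors. The log2 ratio was -2.73, so the difference in these counts remained when the copies were put together. For Rpl9-ps6, in contrast, the log2 ratio went from -2.92 alone to -1.36 with its 6 copies, and for Ppihl from -2.92 to -0.23 with 4 copies, where the sums overlapped. A sum holds only reads that were counted for some copy. Reads counted for none are not restored, for Ftl1 or any other gene summed here, and their number was not tested.

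The called energy metabolism genes of the nuclear genome were all higher in MaP R245W/-. Of 76 nuclear subunits of oxidative phosphorylation, 8 were called higher in MaP R245W/- and none higher in MaP R172H/-, with a median of -0.29, beside 2.14% called and a median of -0.08 over all tested genes. Among the 37 members that share less than 5% of their coding words with another gene, 2 were called. Leaving out YZ3 or JM1133 gave 5 calls over the list. Cox7c, a complex IV subunit, had a log2 fold change of -1.46 (SE 0.181, adjusted p = 0.0006) and Atp5f1e, an ATP synthase subunit with no shared coding sequence, a log2 fold change of -1.21 (SE 0.225, adjusted p = 0.00735). Ndufs4 was at -1.003, just past the fold limit, and fell below it without YZ2, YZ3, YZ6, YZ7, JM1233 or JM1133 (-0.99 to -0.95). Outside that list, Ndufb1 (ENSMUSG00000113902.2, chr12:101934343-101943331), a short complex I subunit that shares no coding sequence with another gene, was at 7.33 to 12.9 CPM (median 8.86) in the MaP R172H/- tumors and 41.9, 59.9, 44.4, 39 and 56.3 CPM in the MaP R245W/- tumors, with a log2 fold change of -2.32 (SE 0.186, adjusted p = 4.56e-05). The groups were far apart, and no fit without 1 tumor changed the call. Snrpg, a core spliceosomal protein, had a log2 fold change of -2.36 (SE 0.389, adjusted p = 0.00379), and summed with its pseudogene the log2 ratio was -2.11. C1d, a cofactor of the RNA exosome, had a log2 fold change of -1.67 (SE 0.148, adjusted p = 8.42e-05). Among 32 glycolysis and hypoxia genes 3 were called, all higher in MaP R245W/-, beside 2.14% of all tested genes. Without JM1233 6 were called and without YZ7 5. Pgk1, the phosphoglycerate kinase, was at 18.8 to 69.8 CPM (median 38.7) in the MaP R172H/- tumors and 111, 156, 124, 203 and 253 CPM in the MaP R245W/- tumors, with a log2 fold change of -2.11 (SE 0.298, adjusted p = 0.0014). Pgam1 had a log2 fold change of -1.79 (SE 0.272, adjusted p = 0.00239). Hif1a, the hypoxia-inducible factor, was highest in JM1126, at 462 CPM against 166 to 199 CPM in the other 4, and was -0.63 rather than -1.01 without it. Its call (adjusted p = 0.041 in edgeR) was lost without YZ2, YZ3, YZ4, YZ6, YZ10, YZ11, RM0014 or JM1126. Of 25 cholesterol synthesis genes, 1 was called, a share near that 2.14%: Idi1, an isomerase (log2 fold change -1.33, SE 0.247, adjusted p = 0.00731). Cox7c, Pgk1, Pgam1 and Idi1 share 100% of their coding words with a pseudogene. Summed with their copies, their log2 ratios were -1.46, -2.11, -1.79 and -1.35. In the fit of genes without shared coding sequence alone, neither the glycolysis nor the cholesterol list held a call.

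Of 44 mitosis and S phase genes, 2 were called, Pcna (log2 fold change -1.09, SE 0.187, adjusted p = 0.00467) and Ccnb1 (log2 fold change -1.17, SE 0.214, adjusted p = 0.00666), both higher in MaP R245W/-, where 2.14% of all tested genes were called, and the median was -0.15. Both have processed pseudogenes that hold most of their coding words, and Pcna was -0.95, not called, without JM1564. Of 37 tested genes in the list of Trp53 and its targets, 1 was called, a share near that background. It was Eda2r, a death receptor, at 0.63 to 3.39 CPM (median 1.71) in the MaP R172H/- tumors and 30.9, 2.06, 2.77, 5.5 and 3.86 CPM in the MaP R245W/- tumors. Its log2 fold change of -2.44 (SE 0.678, adjusted p = 0.0473) was -1.10 without JM1233, and the call was lost in every fit without 1 tumor except those without YZ4 or JM1564. The median over the list was 0.04. None of 37 interferon-stimulated genes was called, although all lay above 0, with a median of 0.70 that was 0.18 without JM1233 and JM1126. The median ran from 0.38 without YZ11 to 1.54 without JM1133, and the fit without JM1133 called 5 members higher in MaP R172H/-, Oas2, Oasl2, Rigi, Stat2 and Xaf1. That fit called 104 of all 14918 tested genes on that side. JM1133 held 6702 CPM of the interferon-stimulated genes in sum, against 797.6 to 2204 CPM in the other 4 MaP R245W/- tumors and 958.1 to 8856 CPM in MaP R172H/- tumors. Oas2, an antiviral sensor, had a log2 fold change of 2.12 (SE 0.749, adjusted p = 0.105).

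**Figure D4:**
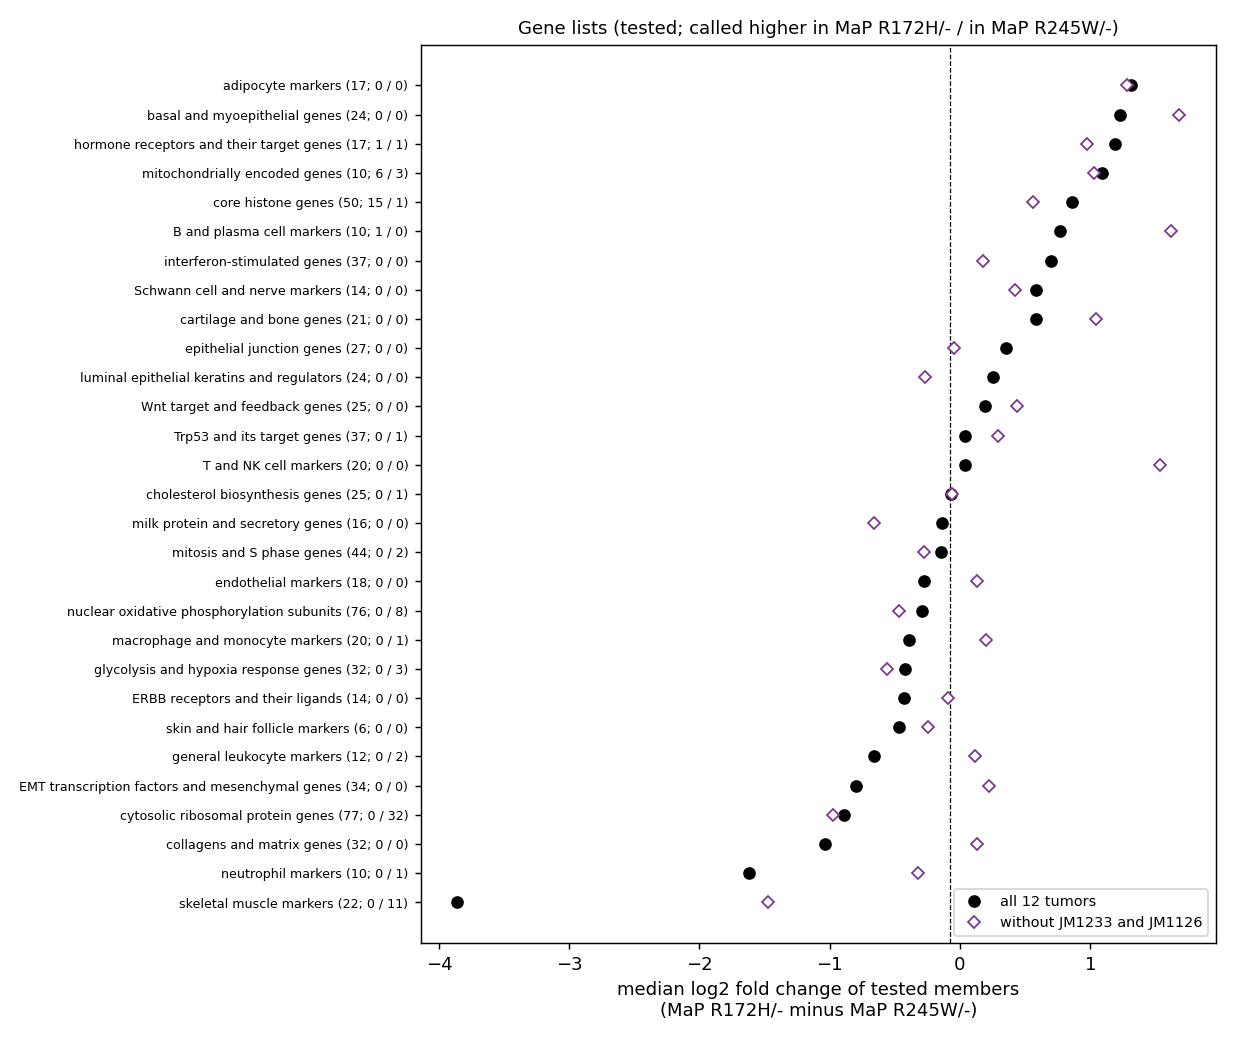
Median log2 fold change (MaP R172H/- minus MaP R245W/-) of the tested members of each gene list, over all 12 tumors (filled circles) and without JM1233 and JM1126 (open diamonds). Numbers in brackets are members tested and members called in each direction, and the dashed line is the median of all protein-coding genes, -0.08. The collagen, EMT, skeletal muscle, neutrophil and T and NK cell medians move by more than 1 when the pair of tumors is left out, and the histone, ribosomal and mitochondrial medians keep their side.

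Stromal and mesenchymal gene lists depended on JM1233 and JM1126. No gene of the 34 in the list of epithelial-mesenchymal transition factors and mesenchymal genes, and none of 32 collagen and matrix genes, was called, with medians of -0.80 and -1.03 that became 0.22 and 0.13 without those tumors. Twist2, a mesenchymal transcription factor, went from -3.13 to 0.11, and Loxl2, a collagen crosslinking enzyme, from -1.47 to -0.34. Skeletal muscle markers gave 11 calls of 22 tested, all higher in MaP R245W/-, beside 2.14% called in that direction over all tested genes. Without those tumors none of the markers was called, beside 2.12% over all tested genes. Fits without 1 tumor called 13 of them (JM1564 or RM0014 left out), 4 or 5 (YZ2, YZ3, YZ4, YZ6, YZ10 or YZ11) or 1 (JM1233, the call that remained being Tnnt3). Acta1, skeletal muscle actin, was at 0.247 to 4.59 CPM (median 0.996) in the MaP R172H/- tumors and 479, 2.27, 0.713, 17.8 and 68.9 CPM in the MaP R245W/- tumors. Its log2 fold change of -6.02 (SE 1.4, adjusted p = 0.0217) was -3.69 without JM1233 and no longer called. The same held for Mylpf (-3.61 and -2.04) and the calcium pump Atp2a1 (-4.44 and -1.85), while Tnnt3, a troponin, was called in both fits (-5.58 and -3.35). Adipocyte markers gave no call among 17, with a median of 1.31. No call was made among 18 endothelial markers (median -0.28), 14 Schwann cell and nerve markers (0.59) or 6 skin and hair follicle markers (-0.47).

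Leukocyte lists held few calls, and their medians depended on JM1233 and JM1126. The median of 12 general leukocyte markers was -0.66 over all tumors and 0.11 without that pair, and the median of 20 macrophage markers was -0.39 and 0.20. Cd53, a tetraspanin of white blood cells, was at 14.3 to 25.4 CPM (median 20.3) in the MaP R172H/- tumors and 106, 35.6, 62.8, 215 and 37.3 CPM in the MaP R245W/- tumors, with a log2 fold change of -2.18 (SE 0.398, adjusted p = 0.00681). The groups did not overlap, and it was still called without JM1233 and JM1126 (-1.17, adjusted p = 0.0143). Tyrobp, an adaptor of myeloid and NK cells and the other call among the general leukocyte markers, had a log2 fold change of -1.38 (SE 0.325, adjusted p = 0.0236) and -0.55 without them, and lost its call without YZ10, JM1233 or JM1126 alone. Of 10 neutrophil markers Mmp9 alone was called, on the strength of JM1126, at 3158 CPM. Without JM1126 its log2 fold change was -1.53 rather than -5.45, and the call (adjusted p = 0.0407 in edgeR) was also lost without any 1 MaP R172H/- tumor. Lyz2, lysozyme and the called member of the macrophage list, was at 168 to 429.6 CPM (median 337) in the MaP R172H/- tumors and 3853, 489.7, 689.9, 1748 and 297 CPM in the MaP R245W/- tumors, and its -2.17 was -1.37 without JM1233 (the call was lost without YZ2, YZ3, YZ6, YZ10, JM1233 or JM1126). Without JM1564 the macrophage list held 5 calls, with Adgre1, Aif1, Ccr2 and Itgam beside Lyz2. That fit called 389 of all 14896 tested genes higher in MaP R245W/-. T and NK cell markers had no call among 20 and a median of 0.04, which was 1.53 without JM1233 and JM1126. In that fit 4 of them were called higher in MaP R172H/-, Cd247, Cd4, Cd8b1 and Foxp3, beside 0.788% of all tested genes. Without YZ7 as well 7 markers were, in a fit that called 260 of all 14862 tested genes on that side. Cytokine genes chosen after their values were seen were called higher in MaP R245W/- with overlapping groups: Il6 (-2.68), Il1b (-2.58) and Osm (-2.55), with Il1b at 348 CPM in JM1126. They come from no fixed list, and no fit without JM1233 or JM1126 is given for them.

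The study picked a set of genes to test as mutant p53 targets, on the same tumors, so their directions are not independent evidence. Lime1 was the one that did not pass the filter, with 0 to 17 counts per tumor. Nrtn and Add2 were called. Nrtn (ENSMUSG00000039481.6, chr17:57058324-57064569), the neurotrophic factor neurturin, was at 3.91 to 9.56 CPM (median 5.68) in the MaP R172H/- tumors and 0.21, 1.14, 0.97, 0 and 1.67 CPM in the MaP R245W/- tumors, with a log2 fold change of 2.92 (SE 0.762, adjusted p = 0.0376). All MaP R172H/- tumors were above all MaP R245W/- tumors, at low levels. The call was lost when YZ2, YZ3, YZ4, YZ6, YZ10, JM1233, JM1564 or RM0014 was left out (log2 fold changes of 2.68 or more) and with GC and length offsets (2.09, adjusted p = 0.0933). Add2, a membrane skeleton protein, was at 0.585 to 1.96 CPM (median 0.996) in the MaP R172H/- tumors and 9.87, 4.91, 4.82, 59.2 and 2.16 CPM in the MaP R245W/- tumors, with a log2 fold change of -3.78 (SE 0.742, adjusted p = 0.00955). JM1126 was the highest tumor, and leaving it out gave -2.21. Nr5a2, an orphan nuclear receptor that the study placed between mutant p53 and its targets, was at 0.302 to 5.09 CPM (median 0.987) in the MaP R172H/- tumors and 6.03, 8.68, 1.54, 2.51 and 2.46 CPM in the MaP R245W/- tumors, with a log2 fold change of -1.44 (SE 0.647, adjusted p = 0.19), and was not called. With 1 tumor left out its log2 fold change ran from -2.12 to -0.99. The fit without YZ6, which held the 5.09 CPM, called Nr5a2 higher in MaP R245W/-. Arhgef18 had 1857 CPM in YZ7 and a log2 fold change of 2.48 (SE 0.908, adjusted p = 0.115), which was 0.92 without YZ7. Fbxo2 (log2 fold change 4.09, SE 1.3, adjusted p = 0.0759), Msi1 (log2 fold change 1.3, adjusted p = 0.483), Prss35 (-0.91), Myh4 (log2 fold change -4.69, SE 1.32, adjusted p = 0.0502) and Ankrd2 (-3.16) were not called. Single tumors moved several of them: without YZ7 Fbxo2 was 2.14 and Msi1 0.59, and without JM1233 Prss35 was 0.24, Myh4 -3.18 and Ankrd2 -0.93. Myh4 and Ankrd2 are skeletal muscle genes and were highest in JM1233, at 148 and 13.5 CPM.

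Nr5a2 and its relatives bind an extended half-site, searched here as AAGGTCA or AAGGCCA on either strand of the 300 bases before each start. It occurred in 10.1% of tested genes, in 9.28% of the 97 genes called higher in MaP R172H/- that have a window and in 9.62% of the 312 called higher in MaP R245W/-. The study scanned a much longer upstream region with motif-search tools, in genes raised against MaP -/- tumors. It also reported mutant p53 overexpression, Nr5a2 knockdown and co-immunoprecipitation. Window, motif and gene set all differ here, so these shares do not test its result. The window of Nrtn, chr17:57064570-57064869 on the minus strand, is shown because Nrtn was the called candidate on the MaP R172H/- side and holds 1 match, in capitals:
Nrtn: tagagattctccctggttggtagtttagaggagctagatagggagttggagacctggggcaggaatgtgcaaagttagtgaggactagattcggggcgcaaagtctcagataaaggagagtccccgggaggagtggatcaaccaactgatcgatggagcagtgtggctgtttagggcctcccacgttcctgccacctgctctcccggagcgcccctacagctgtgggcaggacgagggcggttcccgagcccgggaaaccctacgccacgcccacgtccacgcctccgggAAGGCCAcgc

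Called genes differed from other genes in composition. Sorted into quintiles by the GC content of the canonical transcript, 58 of the 103 genes called higher in MaP R172H/- fell in the most GC-rich quintile, and 106 of the 315 called higher in MaP R245W/- fell in the most GC-poor quintile. The median log2 fold change of all genes ran with it, from -0.26 in the poorest to 0.16 in the richest quintile. By length, 138 of the 315 were among the shortest quintile (312 to 1928 bases), where 4.68% of genes were called, against 1.12% in the longest. Genes with shared sequence were called most often: where at least 50% of the coding words occur in a pseudogene, 97 of 580 genes (16.7%) were called higher in MaP R245W/-, with a median of -0.44. Genes with at least 5% of their words in any other gene were 17.8% of those tested, 34.95% of calls on the MaP R172H/- side and 48.89% on the MaP R245W/- side. Read length, depth and platform followed genotype in these libraries, and their part in these trends cannot be told apart from that of the mutants.

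**Figure D5:**
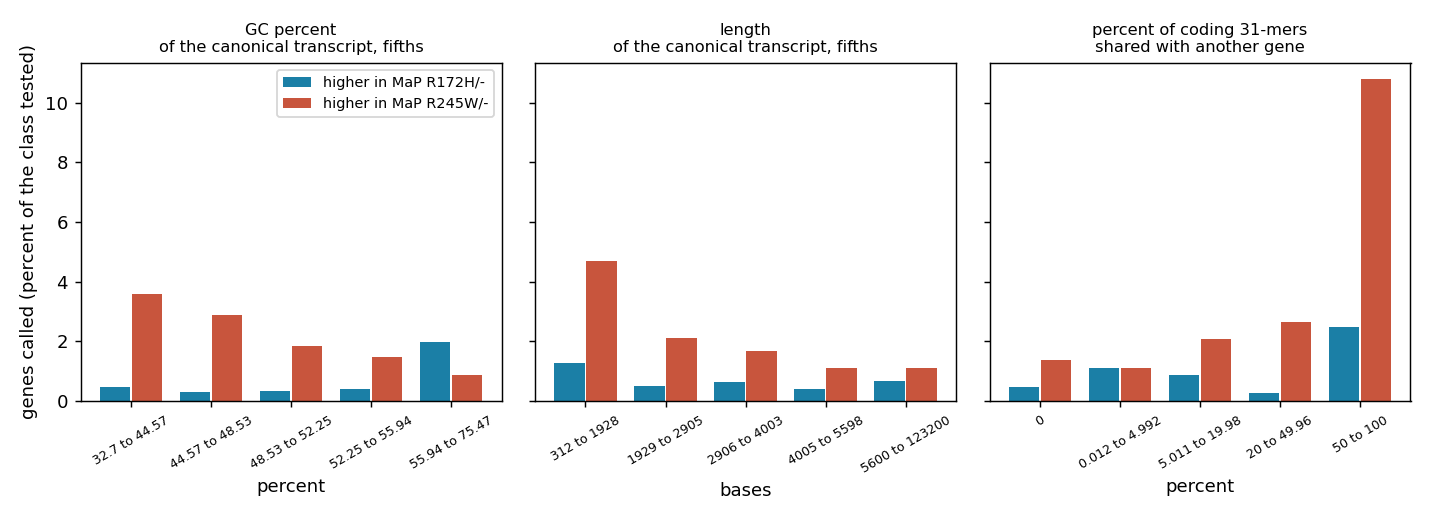
Share of tested protein-coding genes called higher in MaP R172H/- (blue) or MaP R245W/- (red), in percent, by quintiles of GC content, by quintiles of length and by the percent of coding 31-base words shared with another gene. The MaP R245W/- bars fall from 3.6% to 0.882% with GC content and rise to 10.8% for genes that share at least 50% of their coding words.

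MaP -/- tumors give a reference for the same platform and triple-negative subtype as MaP R245W/-, with no p53 in the recombined cells. For 79 of the 103 genes called higher in MaP R172H/- (76.7%) and for 236 of the 315 called higher in MaP R245W/- (74.9%), the MaP -/- median was nearer to the MaP R245W/- median than to the MaP R172H/- median. The same share over all tested genes was not taken. Whether these shares are particular to the called genes therefore cannot be said. Ftl1 was 58.5 to 134 CPM (median 78.2) in MaP -/- tumors, Ndufb1 23.6 to 40.2 CPM (median 31.5), mt-Nd2 45.1 to 89.7 CPM (median 58.3) and Mbd6 6.94 to 18 CPM (median 11.8). Nrtn was 0.0324 to 0.749 CPM (median 0.642) and Wnt4 0.911 to 15.9 CPM (median 1.4). Which mutant differs from a tumor without p53 was not tested here, and 4 of these 6 tumors come from 2 mice.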

How the data were processed

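Bulk RNA was sequenced from 18 mouse mammary tumors. The authors aligned paired reads to GRCm39 with STAR 2.7.10b and estimated gene counts with RSEM 1.3.3 against GENCODE, after quality checks with FastQC 0.11.9, and deposited estimated counts as whole numbers for 57126 genes. Biotypes and coordinates were taken from a later GENCODE release for the same build, which held 56620 of the identifiers.

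Counts of the 12 tumors compared were fitted with edgeR 4.0.16 in R 4.3.3 (filterByExpr, TMM, quasi-likelihood test), and p-values were adjusted by Benjamini-Hochberg over all 20883 genes tested, protein-coding or not. Estimated counts carry read-assignment error that the test does not model. Standard errors were taken from the fold change and its F statistic. The script was tested on simulated data. Samples are separate tumors of separate mice in both groups.

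Coding sequences were cut into 31-base words to measure what each gene shares with others. Genes named are the 12 largest called changes in each direction without overlap and with a median of at least 1 CPM, the 5 smallest p in each direction, Trp53, Nr5a2, Esr1, Pgr, Erbb2, the study's target genes, and up to 4 members per list. Genes outside this rule are marked. Members and lists were chosen with earlier results of these data known. Alternatives were other normalization (DESeq2 1.42.0 size factors and Wald test), filters, tumors and covariates. Sequences are from the GRCm39 reference.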

Additional observations from a re-analysis of the deposited data

Results flagged for a closer look

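Among the 95 named genes, 190 groups of tumors were screened for a tumor far from the others on the log2(CPM + 0.5) scale, and 18 were found. Chance alone picks out about 1 in 20 groups. Values are CPM, each beside the range of the other tumors of its group.

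YZ7 was lowest for Krt19 (2.59, others 128 to 767), Erbb2 (34.9, others 74.0 to 114) and Cox7c (12.6, others 16.3 to 19.2), and highest for the cartilage regulator Sox6 (255, others 6.41 to 15.4). YZ4 was highest for Pgr (81.6, others 0.395 to 2.91) and for the ERBB ligand Nrg4 (12.5, others 2.77 to 4.52). YZ6 was highest for Rpl39 (78.0, others 45.9 to 53.1) and Rpl10 (143, others 87.6 to 108). YZ11 was lowest for Trp53 (10.8, others 41.4 to 50.2), and YZ3 highest for Tnnt3 (1.54, others 0.0878 to 0.474).

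JM1126 was highest for Ftl1 (183, others 84.7 to 102), Ereg (61.9, others 0.33 to 1.34), Hif1a (462, others 166 to 199) and the basal keratin Krt5 (3.54, others 0 to 0.399). JM1233 was lowest for Cbarp (2.37, others 4.94 to 6.24) and Idi1 (9.33, others 14.7 to 16.4) and highest for the bone regulator Dlx5 (0.3, others 0 to 0.0571). RM0014 was lowest for Mst1 (0.799, others 1.51 to 1.62). Mst1 (log2 fold change 1.76, SE 0.49, adjusted p = 0.0483 by edgeR) was called higher in MaP R172H/-, at 1.75 to 12.9 CPM (median 2.96) in the MaP R172H/- tumors and 1.62, 1.53, 0.799, 1.51 and 1.52 CPM in the MaP R245W/- tumors, and kept its call without YZ7 or YZ11 but not without any other single tumor.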

How the results depend on the processing

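The counts of called protein-coding genes, 103 higher in MaP R172H/- and 315 higher in MaP R245W/-, were 366 and 545 with the DESeq2 Wald test, and the share higher in MaP R172H/- went from 24.6% to 40.2%. That test was run without the filter on low counts, so test and filter both differ from the first fit. DESeq2 size factors in the edgeR fit gave 102 and 314, no filter on low counts 57 and 261, protein-coding genes alone 81 and 203, an adjusted p alone 188 and 679, and a log2 fold change above 2 gave 19 and 87. A minimum of 10 counts in every tumor gave 95 and 243, the TdTomato covariate 81 and 263, and all 18 tumors in the fit 148 and 397. Chosen after seeing the data, GC and length offsets gave 65 and 278, of which 64 and 259 were calls in the first fit, genes without shared coding sequence alone gave 27 and 108, and leaving out YZ7, JM1233 and JM1126 gave 260 and 449, of which 51 and 200 were calls in the first fit. With 1 tumor left out the counts ran from 60 (RM0014) to 147 (YZ7) and from 215 (YZ10) to 389 (JM1564), and YZ4 gave 66. Genes whose difference changed sign were not called, apart from Mmp9. Esr1 went to -0.047 with the covariate, to -0.0001 in genes without shared sequence, and ran from -0.23 to 0.355 with 1 tumor left out. Erbb2 went to -0.0003 with GC and length offsets and ran from -0.15 to 0.28 with 1 tumor left out. Prss35 ran from -2.89 to 0.24. Without JM1233 and JM1126, Erbb2 was -0.38, Prss35 0.58, Twist2 0.11, Klrb1c 0.039 and Mmp9 0.41, and without YZ7 as well Erbb2 was -0.24, Twist2 0.20 and Mmp9 0.60. These fits without named tumors were also chosen after seeing the data. The cause was not tested, beyond fewer tumors or genes entering those fits. No paired analysis was possible because the labels give no replicate numbers that the groups share. Nrtn rests on few counts in the MaP R245W/- tumors (0.21, 1.14, 0.97, 0 and 1.67 CPM), which limits its fold change.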

Other observations

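Further genes, chosen after their values were seen, are given from the same edgeR fit, and Tlr4 and Ccr1 among them were called. Tlr4, the endotoxin receptor, was at 22 to 61.3 CPM (median 42.2) in the MaP R172H/- tumors and 117, 53.4, 57.8, 149 and 75.9 CPM in the MaP R245W/- tumors, with a log2 fold change of -1.11 (SE 0.292, adjusted p = 0.0389). The chemokine receptor Ccr1 had a log2 fold change of -1.64 (SE 0.383, adjusted p = 0.0221), at 23.6 to 46.2 CPM (median 27.3) in the MaP R172H/- tumors and 147, 30.4, 52.2, 176 and 56.7 CPM in the MaP R245W/- tumors. In both the groups overlapped and JM1233 or JM1126 was the highest tumor. No fit without those tumors is given for Tlr4 or Ccr1. Foxa1, a pioneer factor of luminal cells, was at 0 to 22.3 CPM (median 2.72) in the MaP R172H/- tumors and 0.12, 0.092, 0.2, 0.354 and 1.02 CPM in the MaP R245W/- tumors, with a log2 fold change of 4.08 (SE 1.18, adjusted p = 0.0557), and was not called.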
